A study of Mus musculus with 3 samples.

Results

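The genes described here are the 6 that write and erase DNA methylation in mouse, the methyltransferases Dnmt1, Dnmt3a and Dnmt3b and the dioxygenases Tet1, Tet2 and Tet3. They were found by symbol among the 32285 gene rows of 3 single-cell libraries, and all 6 were present and above the minimum for measurement in each lineage compared. DNMT1 copies methyl marks onto the new strand after replication, guided by UHRF1. DNMT3A and DNMT3B place marks at unmethylated CpG dinucleotides, and the TET proteins oxidise 5-methylcytosine, which leads to its loss through replication or base excision repair. In blood, DNMT3A and TET2 are among the genes most often mutated in clonal haematopoiesis and myeloid leukaemia, and loss of either in mouse stem cells favours self-renewal. TET1 has been described as a target of MLL fusion proteins in leukaemia.

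CITE-seq, which counts RNA and antibody tags in the same cell, was run on Lin-, KIT+ cells, that is progenitors without mature blood-cell markers and with the stem cell factor receptor, from mouse liver at postnatal day 0. There was 1 library for each of 3 groups: mice with the leukaemia fusion MLL::ENL and Skida1 deleted (called Skida1-deleted MLL-ENL below), mice with MLL::ENL and intact Skida1 (MLL-ENL), and Control mice, for which no genotype beyond that name and the library name P0WT was stated. The driver of the fusion, the cells in which Skida1 was deleted, the deleted part of the gene and the number of animals behind a library are not stated in the labels. Since each group had 1 library, no difference below has a replicate check. Every interval is a 95% interval for counting error alone, and UMIs (unique molecular identifiers, 1 per captured transcript) of many cells in a library are not independent animals. All levels are counts per 1e6 gene UMIs (CPM), from UMIs summed over the cells of a lineage. The 3' chemistry counts transcripts without regard to length.

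After filtering and removal of presumed doublets, 9401 Skida1-deleted MLL-ENL, 10154 MLL-ENL and 5391 Control cells remained, with a median of 17340, 14623 and 28023 UMIs per cell. Between 17 and 33 cell barcodes were shared by any pair of libraries. Kit was detected at 228, 199 and 186 CPM, and neither Cd3e nor Ly6g, markers of T cells and mature neutrophils, had a single UMI in any library. Skida1 stood at 1.74 CPM (44 UMIs) in Skida1-deleted MLL-ENL, 15.2 CPM (326 UMIs) in MLL-ENL and 0.989 CPM (19 UMIs) in Control HSPC-like cells. It was thus 0.114-fold (0.0813 to 0.157) with the deletion relative to MLL-ENL, and 15.4-fold (9.70 to 25.9) in MLL-ENL relative to Control. Whether the counted 3' end lies in the deleted part is not known. Lineages were clusters named from marker genes, and 5 had at least 100 cells in every library: HSPC-like (haematopoietic stem and early progenitor) with 2458, 1830 and 1155 cells, granulocyte progenitor-like with 196, 107 and 182, megakaryocyte-like with 916, 611 and 212, erythroid-like with 5378, 7107 and 3429, and basophil-mast-like with 306, 281 and 161.

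Different clusters held most of a lineage in different libraries. Of the 1155 Control HSPC-like cells, 1133 lay in 1 cluster with few cells of the other libraries, while the fusion libraries filled 3 others. The 16 HSPC markers summed to 2203 CPM in Skida1-deleted MLL-ENL, 2192 CPM in MLL-ENL and 2957 CPM in Control HSPC-like cells. The 20 erythroid markers summed to 3914, 4400 and 6335 CPM in erythroid-like cells, and 0 of the 20 were higher in MLL-ENL than in Control. HSPC-like cells also differed in phase: 54.4% of Skida1-deleted MLL-ENL, 58.5% of MLL-ENL and 34.7% of Control cells were called G1. In megakaryocyte-like cells the G1 shares were 35.8%, 38.5% and 8.02%, and in erythroid-like cells 3.16%, 4.83% and 5.40%. Among erythroid clusters of low depth, 1 with a median of 4104 UMIs per cell held 46 Skida1-deleted MLL-ENL, 2451 MLL-ENL and 8 Control cells. Another held 339, 139 and 30. Without all clusters of low depth, 4993, 4461 and 3391 erythroid-like cells remained. The part of these differences in the values below was not tested, except for phase, where values within each called phase are given.

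The genes lie on different chromosomes of GRCm38.p6 (mm10): Dnmt1 on chromosome 9 (20907206 to 20959888), Dnmt3a on 12 (3801559 to 3914443), Dnmt3b on 2 (153649411 to 153687730), Tet1 on 10 (62804570 to 62887469), Tet2 on 3 (133463677 to 133545136) and Tet3 on 6 (83362373 to 83457208). Dnmt3a, Tet1 and Tet3 overlap annotated long noncoding RNAs and Dnmt1 and Tet3 overlap microRNAs. The labels do not say how strand was used in counting. Promoter windows from RefSeq (250 bases before a transcription start to 50 after it) were found for all 6 genes, 10 windows in all. For the members the results turn on, Dnmt1 for its cell cycle pattern and Tet1 for its erythroid difference, 1 window each is shown. Both read 5' to 3' on the minus strand of each chromosome. Dnmt1 had 3 windows, and the one printed is the only one of them with the motif marked below. In the Dnmt1 window (chr9:20952574-20952873) capitals mark the E2F-type motif TTTNGCGC, read on either strand. In the Tet1 window (chr10:62887275-62887574) capitals mark CpG dinucleotides, the substrate of these enzymes.
Dnmt1: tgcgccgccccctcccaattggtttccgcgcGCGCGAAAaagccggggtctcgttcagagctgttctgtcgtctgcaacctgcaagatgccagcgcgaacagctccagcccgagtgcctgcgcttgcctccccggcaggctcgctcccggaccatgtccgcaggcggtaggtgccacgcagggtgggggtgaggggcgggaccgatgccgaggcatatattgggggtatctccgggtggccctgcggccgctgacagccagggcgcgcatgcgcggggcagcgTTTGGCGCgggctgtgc
Tet1: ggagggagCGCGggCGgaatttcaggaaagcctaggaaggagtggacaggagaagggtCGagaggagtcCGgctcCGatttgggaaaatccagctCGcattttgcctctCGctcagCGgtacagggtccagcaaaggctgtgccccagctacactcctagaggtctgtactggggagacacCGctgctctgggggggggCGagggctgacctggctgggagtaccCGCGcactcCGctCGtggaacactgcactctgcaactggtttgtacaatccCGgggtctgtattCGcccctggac
The Dnmt1 window held 2 non-overlapping matches of the motif, which occurred in 1.38% of 32851 RefSeq windows and in none of the other 9 windows of these genes. The match is a description of letters and says nothing about binding. The printed Dnmt1 window held 33 CpGs, the Tet1 window 17 and the Tet2 window (chr3:133544341-133544640) 57, against a median of 7 over all windows. The other Dnmt1 windows held 2 CpGs (chr9:20959839-20960138) and 12 CpGs (chr9:20952930-20953229).

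Dnmt1, the maintenance enzyme, was the most abundant of the 6 transcripts in each of the 5 lineages of each library and varied least between lineages. In HSPC-like cells it stood at 216 CPM (211 to 222) in Skida1-deleted MLL-ENL, 194 CPM (188 to 200) in MLL-ENL and 254 CPM (247 to 261) in Control. Megakaryocyte-like cells had 250 CPM, 221 CPM and 292 CPM, the highest Dnmt1 level among the 5 compared lineages in each library, although in MLL-ENL the interval overlapped that of erythroid-like cells. Erythroid-like cells had 207 CPM, 209 CPM and 222 CPM. The highest of the 5 lineages was 1.39-fold above the lowest in Skida1-deleted MLL-ENL, 1.22-fold in MLL-ENL and 1.48-fold in Control, a narrow range beside the other 5 genes.

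Among the 5 compared lineages, the de novo enzymes were highest in HSPC-like cells and lowest in erythroid-like cells of all 3 libraries. Dnmt3a stood at 79.5 CPM (76.1 to 83.0) in Skida1-deleted MLL-ENL, 73.5 CPM (69.9 to 77.2) in MLL-ENL and 74.0 CPM (70.2 to 78.0) in Control HSPC-like cells. In erythroid-like cells it stood at 17.5, 18 and 13.9 CPM, so HSPC-like cells were 4.55-fold, 4.09-fold and 5.31-fold higher. The granulocyte progenitor-like, megakaryocyte-like and basophil-mast-like classes lay between, from 38.1 to 56.4 CPM, mostly with overlapping intervals. Dnmt3b, the other de novo enzyme, stood at 85.4 CPM (81.8 to 89.0) in Skida1-deleted MLL-ENL, 76.2 CPM (72.6 to 80.0) in MLL-ENL and 105.3 CPM (100.8 to 110) in Control HSPC-like cells, with Control highest. In erythroid-like cells it stood at 25.5, 25.3 and 29.0 CPM, a difference of 3.34-fold, 3.01-fold and 3.63-fold. The erythroid-like interval of Dnmt3b overlapped that of granulocyte progenitor-like cells in Skida1-deleted MLL-ENL and in MLL-ENL. Counted as a share of the UMIs of the 3 methyltransferases, Dnmt1 made up 56.8%, 56.4% and 58.6% in HSPC-like cells and 82.8%, 82.8% and 83.8% in erythroid-like cells.

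The Tet genes each had their own order over the 5 lineages. Tet1 was highest in HSPC-like cells, with 46.9 CPM (44.3 to 49.7) in Skida1-deleted MLL-ENL, 45.7 CPM (42.9 to 48.6) in MLL-ENL and 37.8 CPM (35.1 to 40.7) in Control. Basophil-mast-like, megakaryocyte-like, granulocyte progenitor-like and erythroid-like cells followed in that order in all 3 libraries, though neighbours overlapped in places, including the first pair in Control. The lowest levels, in erythroid-like cells, were 13.6 CPM, 10.3 CPM and 6.16 CPM, so the range was 3.44-fold, 4.44-fold and 6.14-fold. Tet2, a frequent site of mutation in human myeloid disease, was instead highest of the 5 in basophil-mast-like cells, with 49.1, 55.7 and 49.9 CPM. It was lowest in erythroid-like cells, with 16.2, 17.8 and 14.2 CPM, and in MLL-ENL the basophil-mast-like interval overlapped that of granulocyte progenitor-like cells. Tet3 was highest in megakaryocyte-like cells, with 74.8 CPM, 84.6 CPM and 63.0 CPM, and lowest in erythroid-like cells, with 37.5 CPM, 36.0 CPM and 34.7 CPM. Its megakaryocyte-like interval overlapped that of HSPC-like cells in Skida1-deleted MLL-ENL, and those of basophil-mast-like and HSPC-like cells in Control. Its erythroid-like interval overlapped that of granulocyte progenitor-like cells in all 3 libraries. Tet3 was the most counted Tet transcript in HSPC-like cells, 44.9%, 45.4% and 44.7% of the Tet UMIs in Skida1-deleted MLL-ENL, MLL-ENL and Control, a near-constant share.

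**Figure D1:**
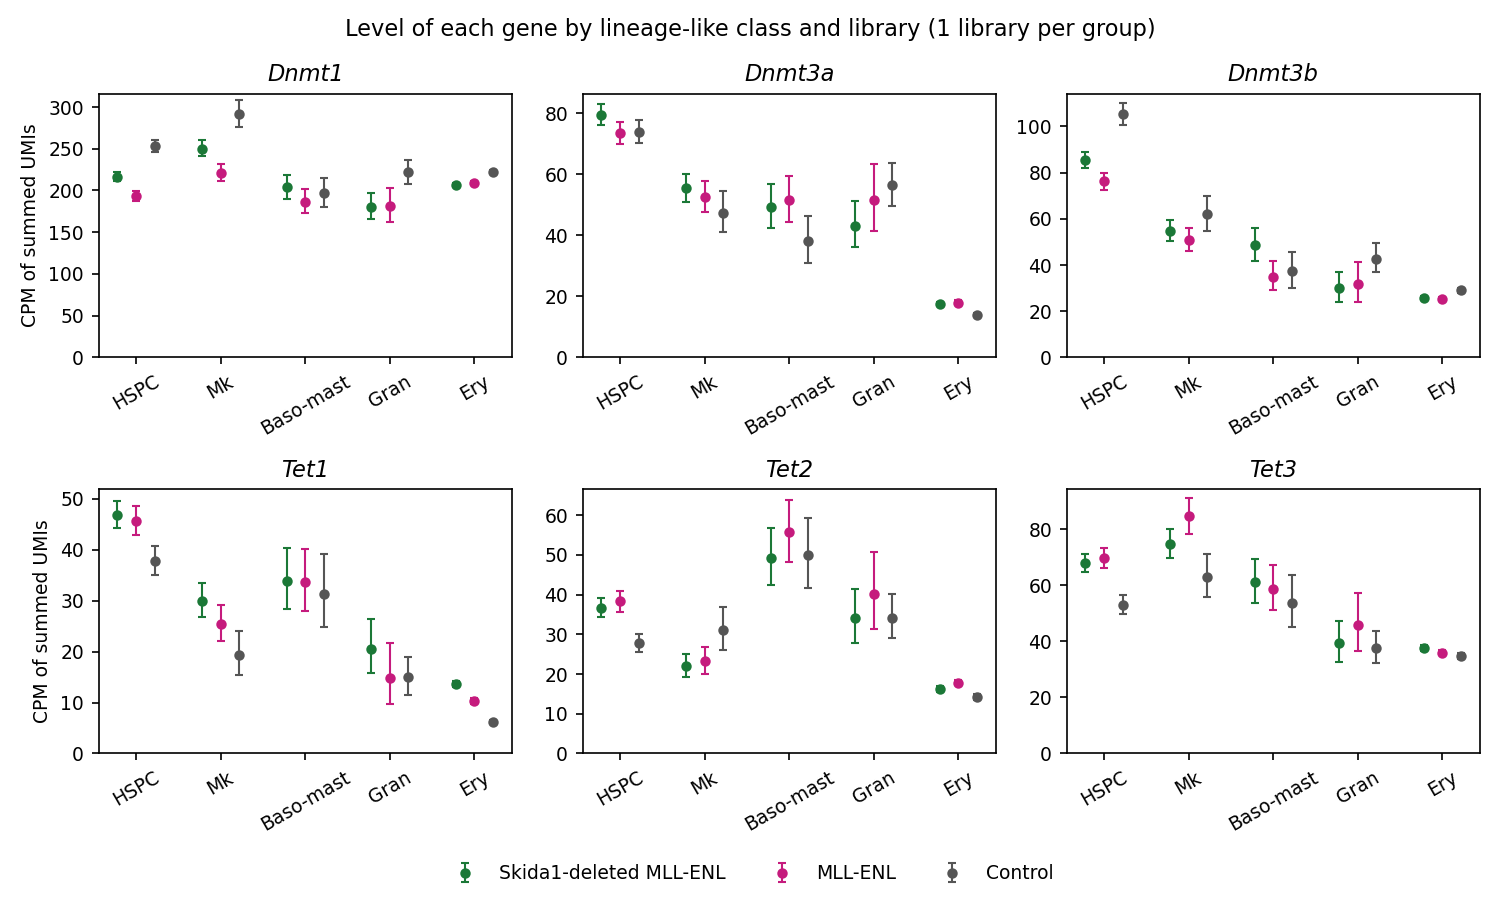
Level of each of the 6 genes (CPM, vertical axis starting at 0) in the 5 lineages, with points for Skida1-deleted MLL-ENL, MLL-ENL and Control from left to right and bars for the 95% counting interval of 1 library. Dnmt1 is nearly level across lineages, Dnmt3a, Dnmt3b and Tet1 are highest in HSPC-like cells, Tet2 in basophil-mast-like cells and Tet3 in megakaryocyte-like cells. Some of these highest points have intervals that overlap the next.

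Lineages with fewer cells gave values without a comparison. They are not part of the orders above. In monocyte-dendritic-like cells (47, 69 and 207 cells) Tet2 stood at 54.2 CPM in Skida1-deleted MLL-ENL, 51.1 CPM in MLL-ENL and 40.8 CPM in Control. In B-lineage-like cells (100, 92 and 45 cells) Dnmt1 stood at 226 CPM, 275 CPM and 311 CPM. Dnmt3b had 5, 13 and 10 UMIs there, too few to order the libraries.

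The first comparison, MLL-ENL against Control, addressed how cells with the fusion differ from Control progenitors. Relative to Control, the fusion library had less Dnmt1 and Dnmt3b and more Tet2 and Tet3 transcript in HSPC-like cells, and more Tet1 in erythroid-like cells. The differences were small. With a change of at least 1.5-fold on the log2(CPM + 1) scale taken as called, 0 of 6 members were called in HSPC-like cells, where 20.6% of 9819 measured genes were (6.52% higher and 14.1% lower). The members' median log2 ratio was 0.13 and that of all measured genes was -0.12. Of the other lineages, erythroid-like cells had 1 member called, Tet1, which was higher, where 15.4% of genes were called and 5.01% were higher. Granulocyte progenitor-like, megakaryocyte-like and basophil-mast-like cells had 0, where 26.5%, 24.6% and 24.9% of genes were called.

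In HSPC-like cells Dnmt1 was 0.764-fold (0.733 to 0.796) and Dnmt3b 0.724-fold (0.678 to 0.773) in MLL-ENL relative to Control. Dnmt3a, at 0.992-fold (0.923 to 1.07), had nearly the same level in both libraries. Tet1 was 1.21-fold (1.10 to 1.33), Tet2 1.38-fold (1.24 to 1.54) and Tet3 1.32-fold (1.21 to 1.43). Within the methyltransferases the maintenance enzyme and Dnmt3b were lower, and the 3 Tet genes were higher, all beyond counting error.

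Over the 5 lineages some genes had 1 direction and others did not. Dnmt1 and Dnmt3b were each below 1 in 5 of 5 lineages, with the interval below 1 in 4 and 3 of them. Dnmt3b went the other way in the 1 erythroid cluster with at least 100 cells of each library. It was 1.63-fold (1.01 to 2.66) there, from 42 MLL-ENL and 33 Control UMIs, while Dnmt1 was 0.838-fold (0.769 to 0.913). Tet3 was above 1 in 5 of 5, with the interval above 1 in 2, among them megakaryocyte-like cells at 1.34-fold (1.16 to 1.55). Tet1 was above 1 in 4 of 5, with the interval above 1 in 3: HSPC-like, megakaryocyte-like (1.31-fold) and erythroid-like cells. In granulocyte progenitor-like cells Tet1 was 0.985-fold (0.601 to 1.57). Tet2 was above 1 in 4 of 5 lineages, but in megakaryocyte-like cells it was 0.752-fold (0.598 to 0.947), 23.3 CPM in MLL-ENL against 31.0 CPM in Control. In granulocyte progenitor-like cells Tet2 was 1.18-fold (0.874 to 1.57), but 0.571-fold, with an interval that spanned 1, when cells were thinned to 3000 UMIs. Dnmt3a had no common direction. It was 1.29-fold (1.21 to 1.37) in erythroid-like and 1.35-fold (1.05 to 1.75) in basophil-mast-like cells, and its intervals in the other 3 lineages spanned 1. In the few G1-called erythroid-like cells Dnmt3a was 0.766-fold (0.554 to 1.06). When mitochondrial, ribosomal protein and globin UMIs were left out of the scaling, the median of all genes moved by 0.10 (log2) in HSPC-like cells and 0.14 in granulocyte progenitor-like cells. Under that scaling Dnmt1 in erythroid-like cells, 0.942-fold (0.926 to 0.957) as reported, became 1.0-fold (0.988 to 1.02), and the interval of Tet2 in megakaryocyte-like cells, at 0.828-fold (0.659 to 1.04), spanned 1.

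**Figure D2:**
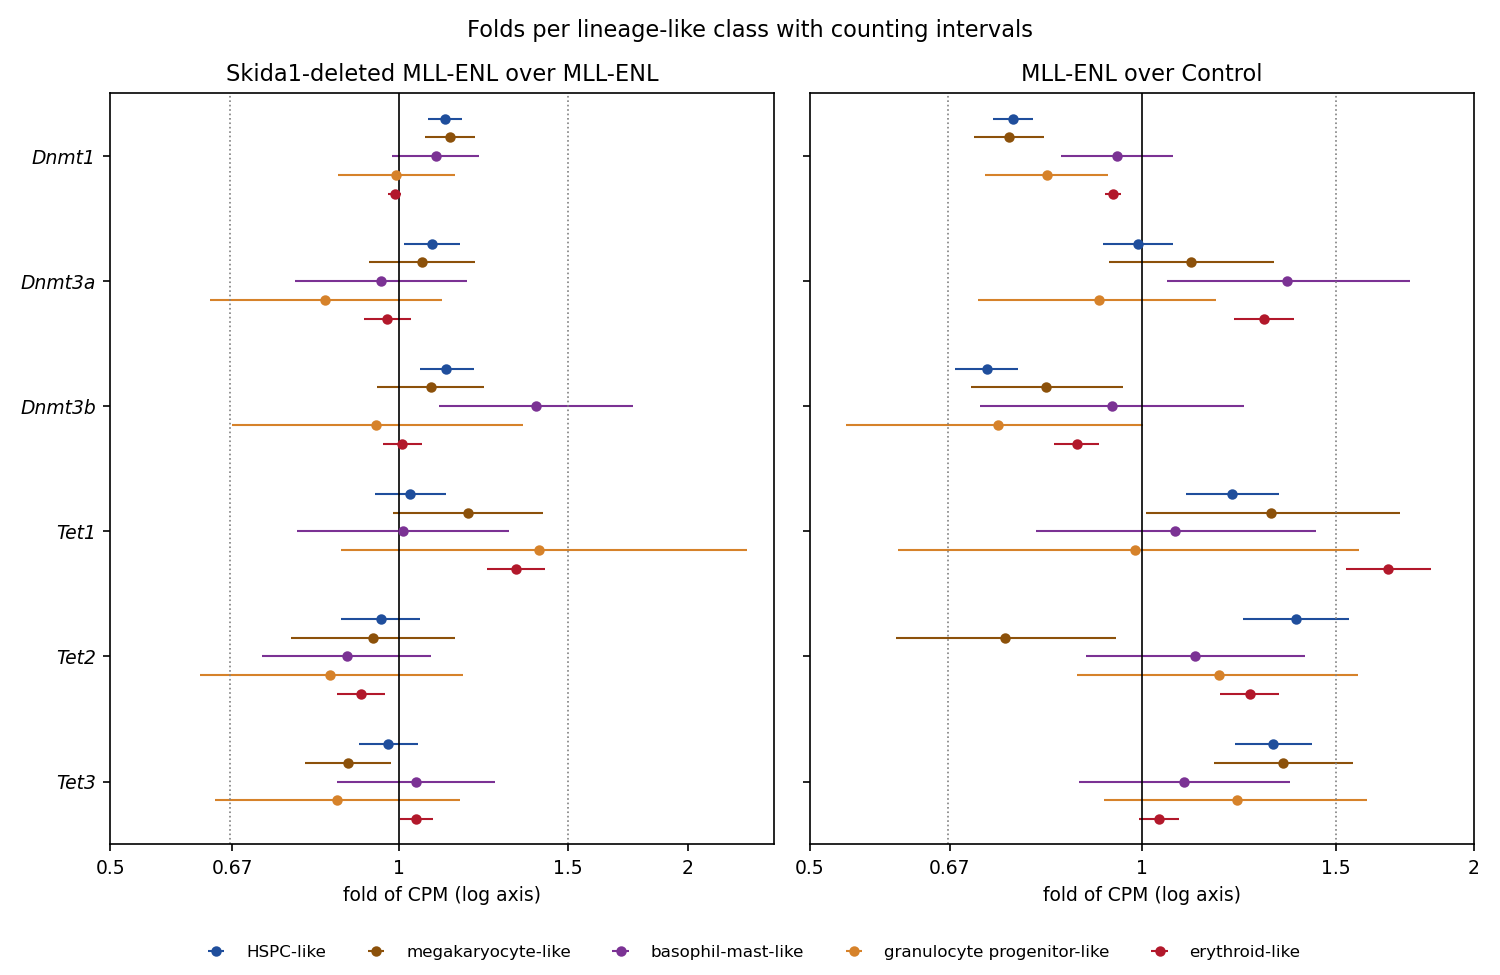
Fold of each gene (log axis) in 5 lineages, Skida1-deleted MLL-ENL over MLL-ENL in the left panel and MLL-ENL over Control in the right, with 95% counting intervals and dotted lines at the 1.5-fold limits. In the right panel Dnmt1 and Dnmt3b lie below 1 in 5 of 5 lineages and Tet1 in erythroid-like cells lies at 1.67; in the left panel points lie closer to 1, with 0 calls.

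Tet1 in erythroid-like cells was the member with a called difference. It had 13.6 CPM (13 to 14.3; 1913 UMIs) in Skida1-deleted MLL-ENL, 10.3 CPM (9.78 to 10.8; 1454 UMIs) in MLL-ENL and 6.16 CPM (5.72 to 6.62; 742 UMIs) in Control. MLL-ENL was 1.67-fold (1.53 to 1.83) above Control. The 3 intervals were apart from each other, with Skida1-deleted MLL-ENL highest and Control lowest. By called phase, Tet1 stood at 18.8, 10.6 and 12.2 CPM in the few G1 cells, 13.1, 9.51 and 6.05 CPM in S, and 14.0, 11.0 and 5.98 CPM in G2M. MLL-ENL over Control was thus 1.57-fold (1.36 to 1.82) in S and 1.83-fold (1.63 to 2.07) in G2M, but 0.863-fold (0.538 to 1.39) in G1, where 42 and 35 UMIs were counted. Without the erythroid clusters of low depth the fold was 1.66 (1.52 to 1.82) over all phases.

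Erythroid stage was examined through globin, in erythroid-like cells with at least 10000 UMIs, with limits set after the data were seen. Cells with under 0.02% globin UMIs (3977 Skida1-deleted MLL-ENL, 3474 MLL-ENL and 2461 Control cells) had Tet1 at 14.6, 11.2 and 7.0 CPM. Those with at least 0.05% (486, 495 and 520 cells) had it at 8.05, 5.49 and 3.76 CPM. Tet1 was lower in high-globin cells of each library and in the same order of libraries in both bins. MLL-ENL was 1.60-fold (1.45 to 1.77) above Control at low and 1.46-fold (1.05 to 2.03) at high globin. Median globin in the high bin was 0.124% in Skida1-deleted MLL-ENL, 0.110% in MLL-ENL and 0.161% in Control. The high bin was thus not matched for stage between libraries, and the part of this in the Tet1 difference was not tested. In the 1 erythroid cluster that all 3 libraries filled, which had the most globin, Tet1 stood at 4.72 CPM (23 UMIs), 2.0 CPM (9 UMIs) and 2.25 CPM (13 UMIs). MLL-ENL over Control was 0.889-fold there (0.335 to 2.25), so the difference was not detectable at this depth. In erythroid-like cells of the 3 libraries the 16 HSPC markers summed to 300, 317 and 306 CPM. The sums of some other marker lists, among them lymphoid progenitor and hepatocyte, stood in the same order of libraries as Tet1, though most single markers did not. Other sums did not. Those of the 11 basophil-mast markers (12.6, 20.7 and 21.2 CPM) and the 7 endothelial markers (109, 115 and 146 CPM) stood in the reverse order, as did the erythroid sums above. The 12 lymphoid progenitor markers summed to 69.2, 63.4 and 37.6 CPM, with 10 of 12 higher in MLL-ENL than in Control. Only 1 of the 12 was higher in Skida1-deleted MLL-ENL than in MLL-ENL, and each library had 1 of them at 0. The 8 hepatocyte markers summed to 17.0, 10.9 and 6.65 CPM, with 7 of 8 higher in MLL-ENL than in Control. Of these 8, 3 were higher in Skida1-deleted MLL-ENL than in MLL-ENL. Their part in the Tet1 difference was not tested.

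The other members differed in how far they were lower at high globin. Dnmt1 in high-globin over low-globin cells was 0.933-fold in Skida1-deleted MLL-ENL, 0.915-fold in MLL-ENL and 0.960-fold in Control, close to level. Dnmt3a was 0.471-fold, 0.531-fold and 0.518-fold, and Dnmt3b 0.359-fold, 0.415-fold and 0.365-fold, the steepest of the 6. Tet1 was 0.551-fold, 0.490-fold and 0.536-fold. Tet3 was 0.774-fold, 0.687-fold and 0.749-fold, and Tet2 0.915-fold (0.790 to 1.06), 0.707-fold (0.608 to 0.819) and 0.880-fold (0.765 to 1.01), with the Tet2 interval below 1 in MLL-ENL alone.

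**Figure D3:**
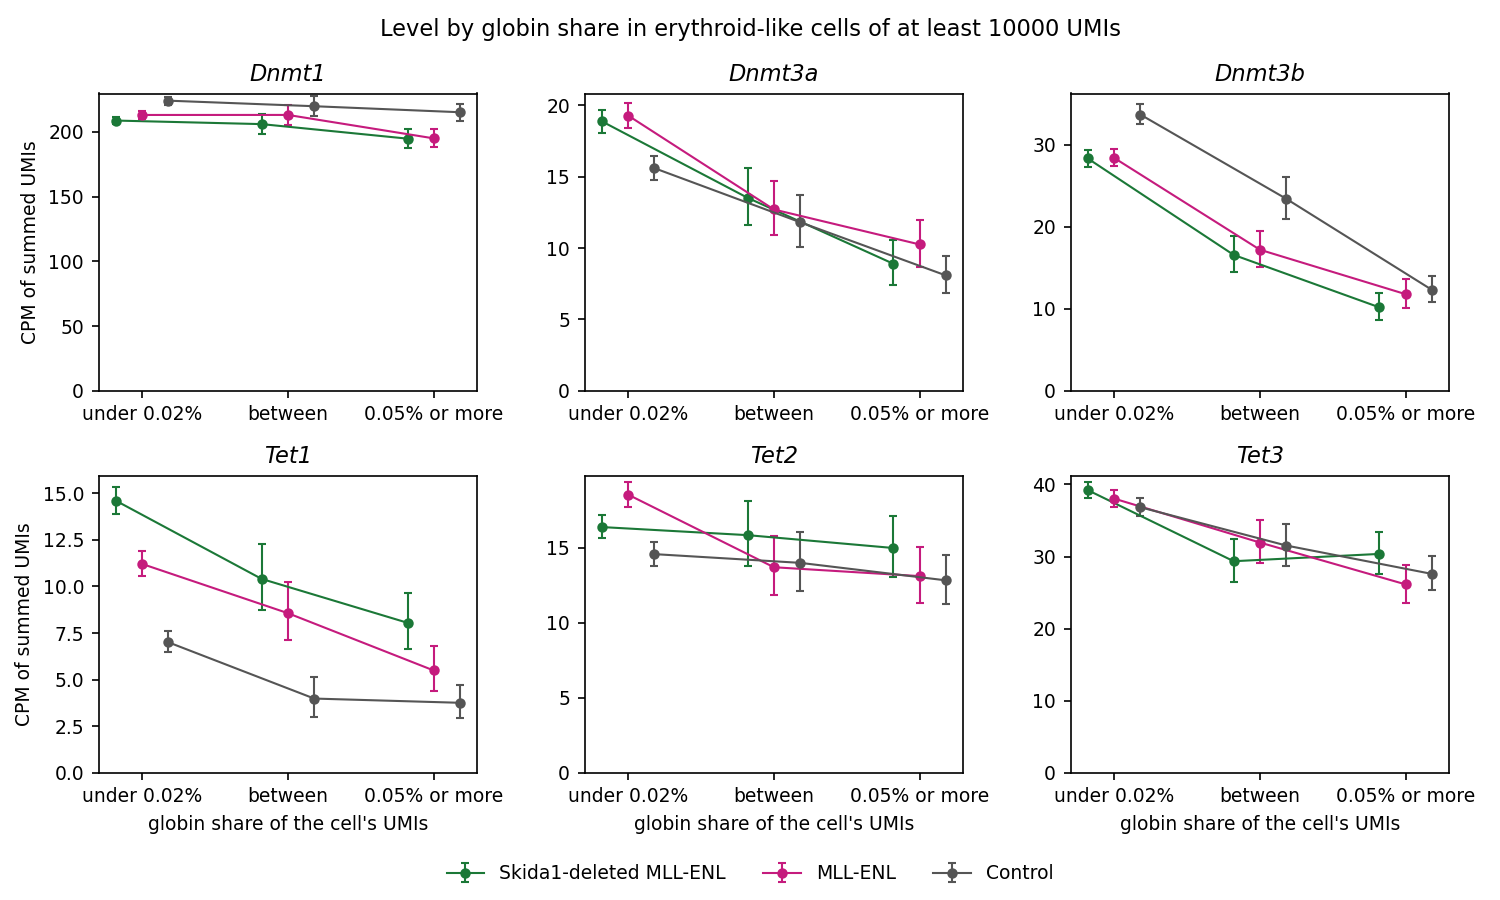
Level of each gene (CPM, axis from 0) in erythroid-like cells with at least 10000 UMIs, in low, middle and high globin cells from left to right, 1 line per library with 95% counting intervals. Dnmt3a, Dnmt3b and Tet1 drop with globin in each library, Dnmt1 stays nearly level, and Tet1 keeps the order Skida1-deleted MLL-ENL, MLL-ENL, Control from high to low.

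The second comparison, Skida1-deleted MLL-ENL against MLL-ENL, addressed what Skida1 contributes to fusion-bearing cells. It shares the MLL-ENL library with the first. With the deletion the 3 methyltransferases were slightly higher in HSPC-like cells, the 3 Tet genes were not distinguishable there, and Tet1 was higher in erythroid-like cells. No member reached 1.5-fold in any of the 5 lineages. Of all measured genes, 2.18% did in HSPC-like (1.39% higher and 0.785% lower), 11.7% in granulocyte progenitor-like, 3.15% in megakaryocyte-like, 1.61% in erythroid-like and 8.88% in basophil-mast-like cells.

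In HSPC-like cells Dnmt1 was 1.12-fold (1.07 to 1.16), Dnmt3a 1.08-fold (1.01 to 1.16) and Dnmt3b 1.12-fold (1.05 to 1.20). Tet1 was 1.03-fold (0.943 to 1.12), Tet2 0.957-fold (0.870 to 1.05) and Tet3 0.974-fold (0.909 to 1.04). The intervals of the 3 Dnmt genes lay above 1 and those of the 3 Tet genes spanned it. Each Dnmt gene was above 1 in 3 of 3 HSPC-like clusters with at least 100 cells of both libraries. The interval lay above 1 in 1 of them for Dnmt1, 1 for Dnmt3a and 2 for Dnmt3b. Dnmt1 was 1.44-fold (1.20 to 1.73) in the mostly G1 cluster. In the others it was 1.04-fold (0.985 to 1.10) and 1.05-fold (0.987 to 1.12). The median of all 9549 measured genes was -0.02 (log2). Dnmt1 was also higher in megakaryocyte-like cells, 1.13-fold (1.06 to 1.20), but not in erythroid-like cells, 0.989-fold, where the interval spanned 1. Dnmt3b was 1.39-fold (1.10 to 1.75) in basophil-mast-like cells, with 48.6 CPM in Skida1-deleted MLL-ENL against 35.0 CPM in MLL-ENL.

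Tet1 was above 1 in 5 of 5 lineages, with the interval above 1 in erythroid-like cells, 1.32-fold (1.24 to 1.42). It was higher with the deletion in 7 of 7 erythroid clusters with at least 100 cells of both libraries, and the interval lay above 1 in 5 of them. The fold was 1.10 to 1.54 in the 5 clusters with over 100 Tet1 UMIs in each library. It was 2.36 (1.05 to 5.78) with 23 against 9 UMIs, and 2.56 (0.596 to 23.1) with 15 against 2. It was 1.30-fold in low-globin and 1.47-fold (1.10 to 1.97) in high-globin cells. Tet2 was below 1 in 5 of 5 lineages, with the interval below 1 in erythroid-like cells at 0.913-fold (0.862 to 0.967). In the other 4 lineages 1 alternative each turned its direction. With cells thinned to 3000 UMIs it was 1.15-fold in HSPC-like and 1.24-fold in megakaryocyte-like cells, and in G1-called cells 1.04-fold in granulocyte progenitor-like and 1.21-fold in basophil-mast-like cells. Intervals of all 4 spanned 1. The Tet1 direction also turned under some alternatives in HSPC-like and basophil-mast-like cells. Tet3 was 0.884-fold (0.797 to 0.981) in megakaryocyte-like and 1.04-fold (1.002 to 1.08) in erythroid-like cells.

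Against Control, the Skida1-deleted library is given for its values alone, as it shares a library with each comparison above. In HSPC-like cells Dnmt1 was 0.853-fold, Dnmt3a 1.07-fold, Dnmt3b 0.811-fold, Tet1 1.24-fold, Tet2 1.32-fold and Tet3 1.28-fold, with 0 of 6 called where 26% of genes were. Tet1 was 2.22-fold (2.03 to 2.41) in erythroid-like and 1.54-fold (1.21 to 1.99) in megakaryocyte-like cells, the calls made there, where 22.1% and 28.1% of genes were called in either direction. Of genes higher, the share was 6.7% in erythroid-like and 7.9% in megakaryocyte-like cells. In granulocyte progenitor-like and basophil-mast-like cells 0 of 6 members were called, where 32.3% and 29.7% of genes were.

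Because DNA methylation is copied at replication, the members were also read by called cell cycle phase in HSPC-like cells. Dnmt1 had 114 CPM in G1, 325 CPM in S and 238 CPM in G2M in Skida1-deleted MLL-ENL. It had 92.2, 303 and 222 CPM in MLL-ENL, and 123, 325 and 263 CPM in Control. Its level in S was 2.86-fold, 3.29-fold and 2.65-fold that in G1, and the phase calls did not use the gene. Dnmt3a was instead highest in G1, with 94.4 CPM in G1, 73.4 CPM in S and 66.5 CPM in G2M in Skida1-deleted MLL-ENL. It had 91.4, 59.3 and 61.3 CPM in MLL-ENL, and 96.3, 74.8 and 61.7 CPM in Control. Dnmt3b was highest in G2M, at 94.1, 89.9 and 119 CPM, against 81.3, 68.4 and 92.8 CPM in G1. The 3 Tet genes were highest in G1 in each library, for Tet1 57.4, 58.1 and 49.0 CPM in G1 against 38.6, 35.6 and 34.9 CPM in S. For Tet2, G2M over G1 was 0.915-fold (0.782 to 1.07) in Skida1-deleted MLL-ENL and 0.918-fold (0.740 to 1.14) in Control, intervals that spanned 1.

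Within each called phase, Dnmt1 and Dnmt3b were again lower and Tet2 and Tet3 higher in MLL-ENL than in Control. Dnmt1 was 0.752-fold in G1, 0.935-fold in S and 0.844-fold in G2M, with each interval below 1. Dnmt3b was 0.737-fold, 0.784-fold and 0.759-fold over the 3 phases, Tet2 1.39-fold, 1.34-fold and 1.27-fold, and Tet3 1.27-fold, 1.27-fold and 1.19-fold. Tet1 was 1.19-fold (1.01 to 1.40) in G1, and its intervals in S and G2M spanned 1. Dnmt3a was 0.793-fold (0.696 to 0.904) in S, with intervals that spanned 1 in G1 and G2M. Beside these values, 13 of 33 S phase genes and 32 of 38 G2M genes were at least 1.5-fold lower in MLL-ENL HSPC-like cells, with medians of -0.42 and -1.04 (log2). Of all measured genes 14.1% were. In megakaryocyte-like cells, 8 of 33 and 36 of 38 were lower in MLL-ENL, where 18.1% of all measured genes were. Within phases there, Dnmt1 was 0.790-fold (0.703 to 0.889) in S and 0.768-fold (0.679 to 0.867) in G2M. Tet3 was 1.55-fold (1.17 to 2.07) and 1.42-fold (1.15 to 1.76), and Tet2 0.803-fold (0.514 to 1.29) and 0.586-fold (0.391 to 0.862). In G1, with 235 MLL-ENL and 17 Control cells, Dnmt1 was 1.38-fold (0.870 to 2.32) and Tet3 0.939-fold (0.564 to 1.68), against the direction over all phases and with intervals that spanned 1. Tet2 had 76 and 2 UMIs there, a ratio of 2.87 (0.768 to 24.1). For Skida1-deleted MLL-ENL over MLL-ENL, Dnmt1 was 1.23-fold in G1, 1.07-fold in S and 1.07-fold in G2M, and the S and G2M lists had 0 and 2 genes called higher and 0 lower, beside 1.39% and 0.785% of all genes.

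**Figure D4:**
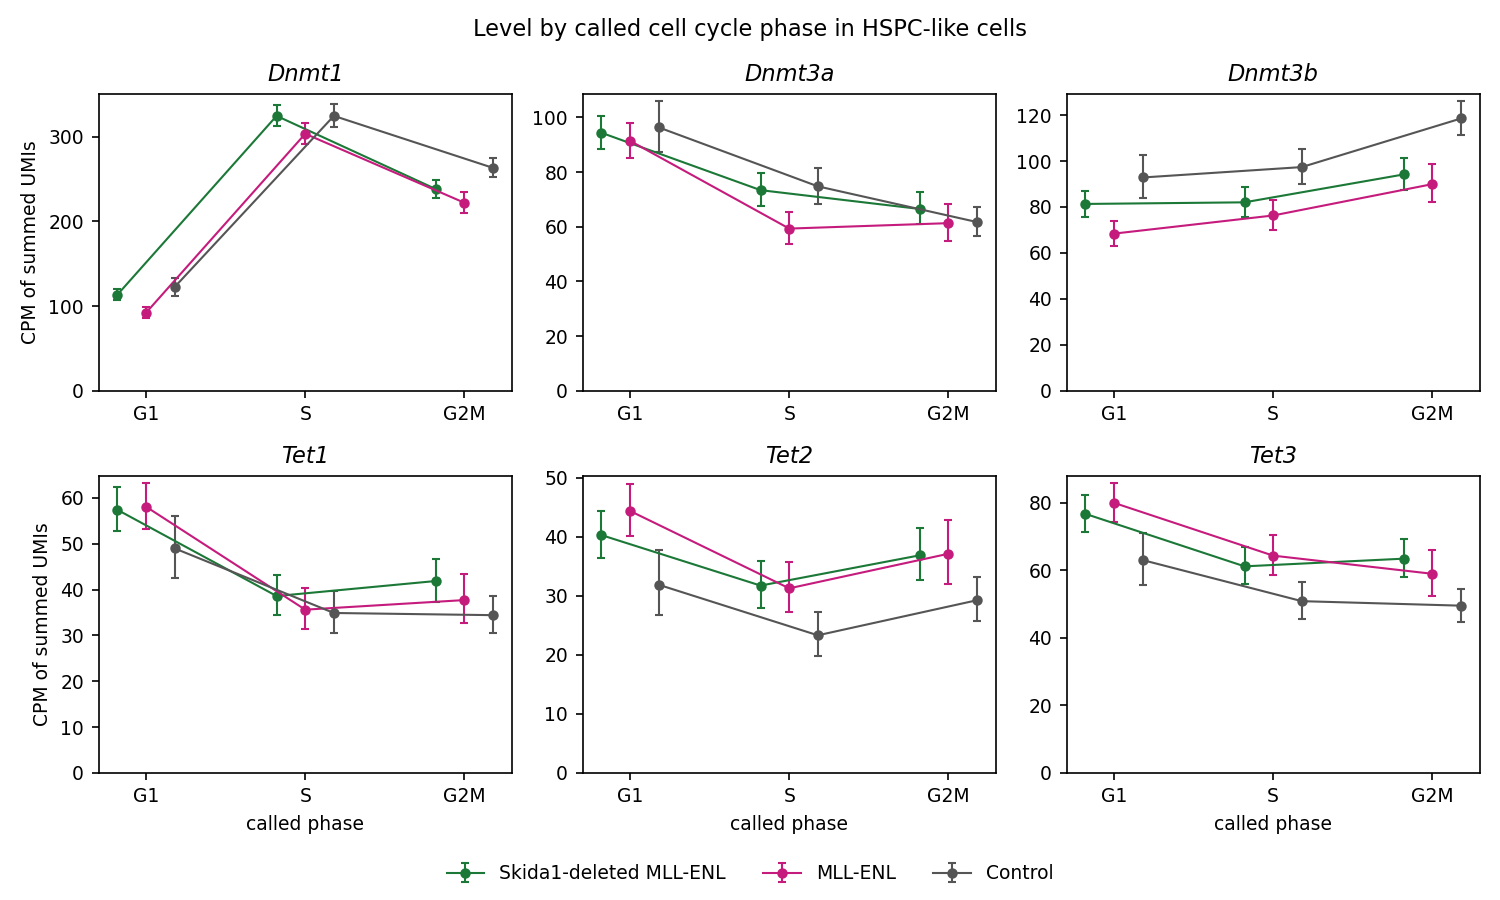
Level of each gene (CPM, axis from 0) in HSPC-like cells called G1, S and G2M, for Skida1-deleted MLL-ENL, MLL-ENL and Control, with 95% counting intervals. Dnmt1 is lowest in G1 and highest in S in each library, from 92.2 to 325 CPM, and Dnmt3a and the Tet genes are highest in G1. For Tet2, G1 and G2M are not distinguishable in Skida1-deleted MLL-ENL and Control.

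The HSPC-like clusters of the fusion libraries showed the same split among themselves. In the cluster where 94.3% of Skida1-deleted MLL-ENL and 95.1% of MLL-ENL cells were called G1, Dnmt1 stood at 90.8 and 63.1 CPM, Dnmt3a at 120 and 109 CPM, Tet1 at 79.6 and 73.1 CPM and Tet3 at 91.7 and 87.7 CPM. In the cluster with 0% of cells in G1, Dnmt1 stood at 322 and 309 CPM, Dnmt3a at 63.7 and 57.5 CPM, Tet1 at 42.3 and 40.7 CPM and Tet3 at 62.5 and 61.6 CPM. The mostly G1 cluster had less Dnmt1 and more Dnmt3a, Tet1 and Tet3 than the cluster without G1 cells in both libraries.

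Partners of the enzymes were read from lists of pathway genes in HSPC-like cells. For MLL-ENL over Control, 1 of 8 measured partners of maintenance methylation was at least 1.5-fold lower and 0 were higher, where 14.1% of all measured genes were lower and 6.52% higher. That gene was Dmap1, a DNMT1-binding protein, at 16.3 CPM in MLL-ENL and 27.1 CPM in Control, or 0.604-fold. Hells, a chromatin remodeller needed for methylation, was 0.711-fold (50.5 against 71.1 CPM), Pcna, the replication clamp, was 0.862-fold, and Cdca7, a partner of HELLS, was 1.19-fold (108 against 91.0 CPM). Uhrf1, which recruits DNMT1, was 0.939-fold, at 79.3 CPM against 84.5 CPM. The list's median was -0.12 (log2), the same as that of all genes to 2 decimals.

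Among partners of de novo methylation, 2 of the 7 measured genes were called lower and 0 higher, beside 14.1% and 6.52% of all genes, with a median of -0.33. They were the histone H3 lysine 9 methyltransferase genes Setdb1, 24.7 CPM in MLL-ENL against 47.8 CPM in Control, and Ehmt1, 47.3 CPM against 86.7 CPM. Setd2, a writer of the lysine 36 mark that guides DNMT3 proteins, was 1.37-fold, and Nsd1, another lysine 36 methyltransferase, was 0.771-fold.

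Of 13 measured TET partners and base excision genes, 2 were lower and 0 higher, with a median of -0.10, a share near the 14.1% of all genes called lower. They were the repair glycosylase Neil3, 21.8 CPM in MLL-ENL and 43.0 CPM in Control, and Apex1, the AP endonuclease, 122 CPM and 199 CPM. Idh2, whose enzyme makes the 2-oxoglutarate that TETs use, was 0.766-fold. Of 10 measured methyl donor cycle genes, 2 were lower and 0 higher, beside the same 14.1%: Shmt1, 28.2 CPM in MLL-ENL and 48.2 CPM in Control, and Mat2a, the S-adenosylmethionine synthetase gene, 168 CPM and 278 CPM.

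The list of methyl-CpG readers, 7 measured, and that of binders of unmethylated CpG, 6 measured, had 0 genes called in either direction, with medians of 0.21 and 0.01. On the reader list, Zbtb4 stood at 8.68 CPM in MLL-ENL against 5.67 CPM in Control. Mbd3, also on it, stood at 112 CPM against 152 CPM. A place on the list does not show that the MBD3 protein binds methylated CpG. Kmt2a, the gene of the MLL protein itself and a binder of unmethylated CpG, had 133 CPM in MLL-ENL and 114 CPM in Control. The labels do not say whether fusion transcripts are counted under that gene.

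For Skida1-deleted MLL-ENL over MLL-ENL, 0 genes of these 6 lists were called in HSPC-like cells, where 2.18% of all measured genes were. The difference was 1.29-fold (1.22 to 1.36) for Cdca7, with 140 CPM against 108 CPM, and 1.16-fold for Uhrf1, with 92.0 CPM against 79.3 CPM. Pcna was 0.804-fold, with 158 CPM against 197 CPM. Mbd2, a methyl-CpG reader, was 0.799-fold, with 59.2 CPM against 74.0 CPM. Fbxl19, a CpG island binder, was 1.30-fold and Mtrr, an enzyme of the methionine cycle, 0.759-fold.

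**Figure D5:**
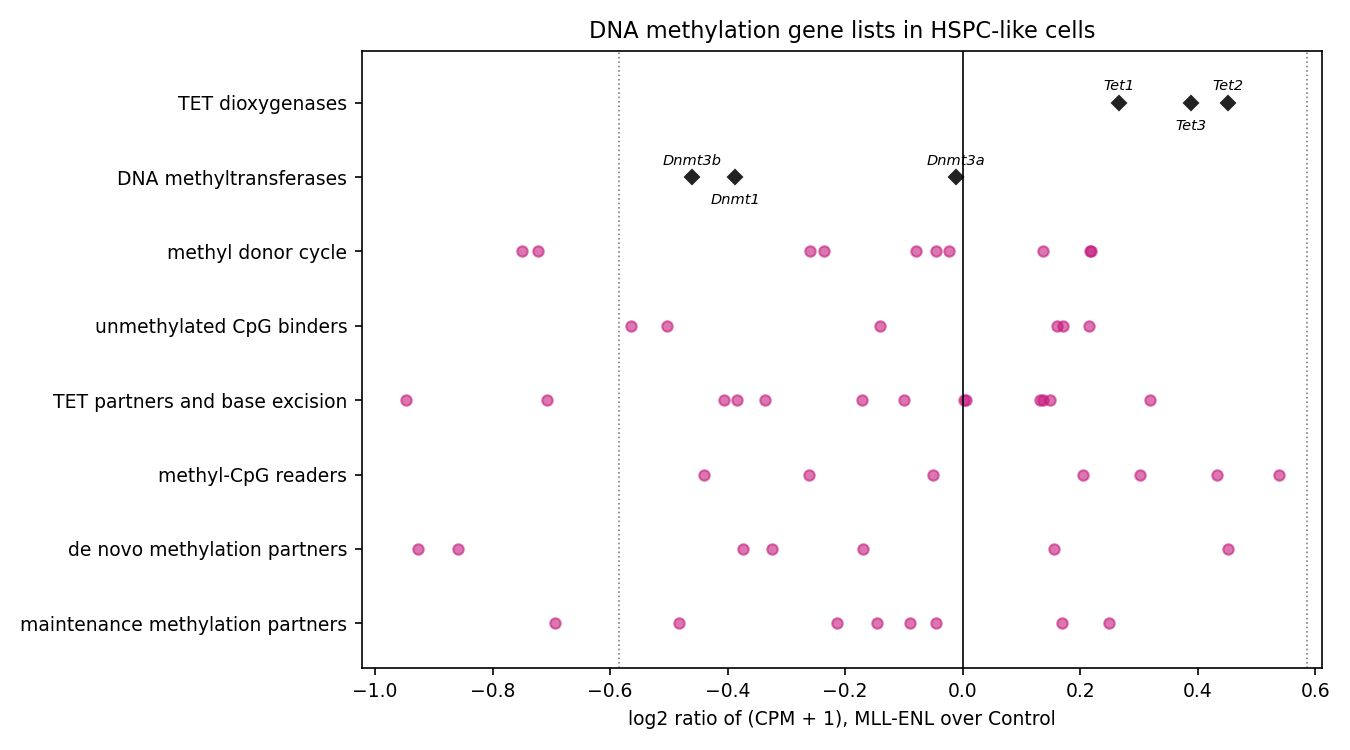
Log2 ratio of (CPM + 1) of each measured gene of the 6 pathway lists in HSPC-like cells, MLL-ENL over Control, 1 point per gene, with lines at the 1.5-fold limits. The methyltransferases and TET dioxygenases stand in rows of their own as labelled diamonds. Of the pathway genes, 7 lie below the lower limit and 0 above the upper.

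Genes whose levels most resembled a member's were sought over the 15 sums of 5 lineages in 3 libraries, among 6875 genes, as a description. Sums of 1 library share its preparation and depth. For Dnmt1 the nearest were Nt5m (Pearson r = 0.928), Prmt3 (0.922) and Pds5b (0.893). For Dnmt3a they were Inpp1 (0.989), Cd93 (0.985) and Elk3 (0.980), and for Dnmt3b Cox4i2 (0.951), Nmi (0.95) and Gcnt2 (0.948). For Tet1 they were Atxn1 (0.959), Hcls1 (0.957) and Chmp1b (0.955), for Tet2 Il3ra (0.970), Emid1 (0.962) and Cdc40 (0.960), and for Tet3 Ski (0.981), Vezf1 (0.960) and Arid1b (0.955). Between members, r was 0.833 for Dnmt3a with Tet1, 0.787 for Dnmt3a with Dnmt3b and 0.776 for Tet1 with Tet3, and -0.38 for Dnmt1 with Tet2.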

How the data were processed

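RNA and surface tags were measured in 3 libraries made from polyA RNA with 10x Genomics single-cell 3' chemistry, per the labels' protocols. The authors deposited raw UMI counts per gene and barcode, with no normalization, for 32285 genes and 10 tags. Cell Ranger 6.1.2 is named per the file headers, and version 6.0.1 with build mm10 per the submitters' processing notes. Tag counts were not used. The gene counts summed to 207395090 in Skida1-deleted MLL-ENL (10543 barcodes), 198773992 in MLL-ENL (11910) and 180656900 in Control (6091).

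Barcodes were kept (9962, 11148 and 5777) if they had 1000 UMIs or more, 500 genes or more, and mitochondrial UMIs below 10%. Scrublet in scanpy 1.11.5 (Python 3.11.15) marked 561 and 386 doublets in Skida1-deleted MLL-ENL and Control. It marked 0 in MLL-ENL, where the 994 highest scores were removed at an expected rate of 0.8% per 1000 cells. Cells were clustered (2000 variable genes without members, pathway and cell cycle genes, 30 components, 15 neighbours, resolution 1) and clusters named from markers. Counts were summed per lineage and library. Levels have exact Poisson intervals and folds exact conditional binomial intervals at 95%, covering counting error. A gene was measured at 5 CPM or more in either library with at least 20 UMIs over both, and called at 1.5-fold of CPM + 1. With 1 library per group no test was made. The 1.5-fold calls and fold intervals were tested on simulated Poisson counts, without variation between cells or libraries. The cell steps, such as doublet removal, clustering, naming and phase calls, were not tested this way. The members, lists and limits were chosen with earlier results of these data known. Named genes were the 6 members, up to 4 genes per list with the largest ratio in HSPC-like cells, and the 3 genes most like each member, with sex-linked, ribosomal, mitochondrial, receptor-segment and unnamed genes left out. Uhrf1, and Skida1 as the targeted gene, were named besides. Alternatives changed filters, doublet removal, clustering, naming, depth, scaling, phase and thresholds.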

Additional observations from a re-analysis of the deposited data

How the results depend on the processing

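No paired analysis was possible because each group had 1 library. The Tet1 difference in erythroid-like cells, MLL-ENL over Control (1.67-fold), lay between 0.863-fold and 1.89-fold over 10 alternatives and reached 1.5-fold in 7. It fell below 1 in G1-called cells (a log2 ratio of -0.20), where few cells remained, and was under 1.5-fold without doublet removal (log2 0.54) and at resolution 1.5 (log2 0.58). It was 1.66-fold without clusters of low depth, a setting chosen after the data were seen. Skida1-deleted MLL-ENL over MLL-ENL kept its direction for Tet1 there, between 1.31-fold and 1.78-fold. In HSPC-like cells, MLL-ENL over Control, the count of members called lower was 1 when clusters were made with all variable genes (Dnmt3b, 0.654-fold). At a call limit of 0.32 on the log2 scale, 2 members were higher and 2 lower. The strict cell filter left 36 Control HSPC-like cells and gave Dnmt1 1.30-fold, Dnmt3b up to 1.14-fold and Tet2 0.963-fold, against their directions above. Tet1 stayed between 1.05-fold and 1.39-fold and Tet3 between 1.23-fold and 1.46-fold over the 11 alternatives. Dnmt3a changed sign in 7. For the deletion, Dnmt1 ranged from 0.980-fold to 1.23-fold, below 1 under the strict filter, and Dnmt3b from 1.05-fold to 1.19-fold. The cause of these changes was not tested. In other lineages, directions under MLL-ENL over Control turned for Dnmt1 in basophil-mast-like (3 of 10 alternatives) and erythroid-like cells (1), and Dnmt3b in basophil-mast-like (4) and erythroid-like cells (1). Tet3 turned in erythroid-like (2), granulocyte progenitor-like and basophil-mast-like cells (1 each). Dnmt3a turned in megakaryocyte-like (5 of 9), granulocyte progenitor-like (4 of 10) and erythroid-like cells (1 of 10). Tet1 turned in granulocyte progenitor-like (8 of 10), megakaryocyte-like (1 of 9) and basophil-mast-like cells (1 of 10), besides erythroid-like cells above. Tet2 turned in granulocyte progenitor-like and basophil-mast-like cells (1 of 10 each). For the deletion, Tet1 turned in HSPC-like (3 of 11) and basophil-mast-like cells (4 of 10). Dnmt1 turned in megakaryocyte-like cells (1 of 9, 0.992-fold under the strict filter). Tet3 turned in erythroid-like cells (1 of 10, 0.864-fold in G1-called cells). Some directions of other members, with intervals that spanned 1, turned as well. G1-called megakaryocyte-like cells, 17 in Control, were left out of these counts, and their values stand with the phases above. Of the genes most like a member, Elk3 gave way to Cyth4 for Dnmt3a and Cox4i2 to Oasl2 for Dnmt3b with CPM + 5. Levels near 10 CPM, as for Tet1 in small clusters, rest on few UMIs.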
